A study of Homo sapiens with 6 samples.

Results

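Expression of the peroxisome proliferator-activated receptors (PPARs) and of target genes of these receptors was followed in Cal33 cells, a long-established line grown from a human squamous carcinoma of the mouth. The set was defined by gene name as the receptors PPARA, PPARD and PPARG and the target genes ANGPTL4, PDK4, FABP5 and PLIN2. Of these 7 genes, 5 had an entry among the 14136 gene entries of the abundance table, and PDK4 and PLIN2 were not analysed here. Cells stably carried FLAG-tagged carboxylesterase 2 (CES2, 3 libraries) or the empty pSin-EF2 vector (Vector, 3 libraries), both delivered by lentivirus, and stable cells of both kinds were selected with 0.5 ug/ml puromycin. Separate transductions, clones or cultures for the libraries of a group are not described, so the p-values measure only the spread between these libraries, which may be technical. The question posed by the design is whether raising CES2, a hydrolase of the endoplasmic reticulum with drug and lipid esters as substrates, changed expression.

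PPARs are nuclear receptors that are activated by fatty acids and their derivatives. Each pairs with a retinoid X receptor (RXR) and binds DNA at direct repeats of a short hexamer, where ligand exchanges corepressors for coactivators. PPARA is best known for driving fatty acid oxidation in liver, PPARG for adipocyte differentiation, and PPARD for broad expression that includes keratinocytes, the cells from which squamous carcinomas derive.

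The table names no unit, and its values were read as TPM, a length-corrected unit, because each library sums to nearly the total of that unit. The sum does not itself show that length was corrected, and levels of different genes are set side by side below on that reading. The values hold no read numbers, and library depth is unknown. CES2 itself was at 2664, 1929 and 2294 TPM in CES2 libraries and at 45.6, 41.9 and 44.9 TPM in Vector libraries. It was the only one of 12210 tested genes past an adjusted p of 0.05 (limma with Benjamini-Hochberg adjustment over all tested genes), which is 0.00819% of them. All 9 squamous epithelial markers, KRT5 and TP63 among them, were expressed, and their summed level was 4057 to 5508 TPM in CES2 and 4163 to 5480 TPM in Vector. Of 5 adipocyte markers only PLIN1 had an entry, at up to 1.60 TPM in CES2 and up to 1.98 TPM in Vector. Of 7 fibroblast markers COL1A1 alone had an entry (up to 10.5 TPM in CES2), 3 of 6 leukocyte markers had an entry (summed 5.60 to 8.79 TPM in CES2 and 6.52 to 11.7 TPM in Vector, nearly all CD68 at its highest), and the summed endothelial markers were at 11.2 to 20.5 TPM in CES2 and 10.2 to 25.8 TPM in Vector. Libraries did not separate by construct. CES2 2 was closest to Vector 1 (Pearson r = 0.978 across genes) and CES2 3 to Vector 2 (r = 0.976), while CES2 2 and CES2 3 had r = 0.932.

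No receptor or target gene passed the test between CES2 and Vector, and no gene of the set had groups that stayed apart. Of 12210 tested genes, 133 (1.09%) had an unadjusted p under 0.05 and 452 (3.7%) had groups that did not overlap, 1.07% with CES2 above and 2.63% with CES2 below. All 5 genes passed the filter of 1 TPM in at least 3 libraries, with no blank value in any library. Their median log2 fold change was 0.071, beside -0.057 for all tested genes, and 3 of 5 were above 0, beside 36.3% of all tested genes. The adjusted p was 1.0 for each of the 5 (limma, 0.999847 before rounding).

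**Figure D1:**
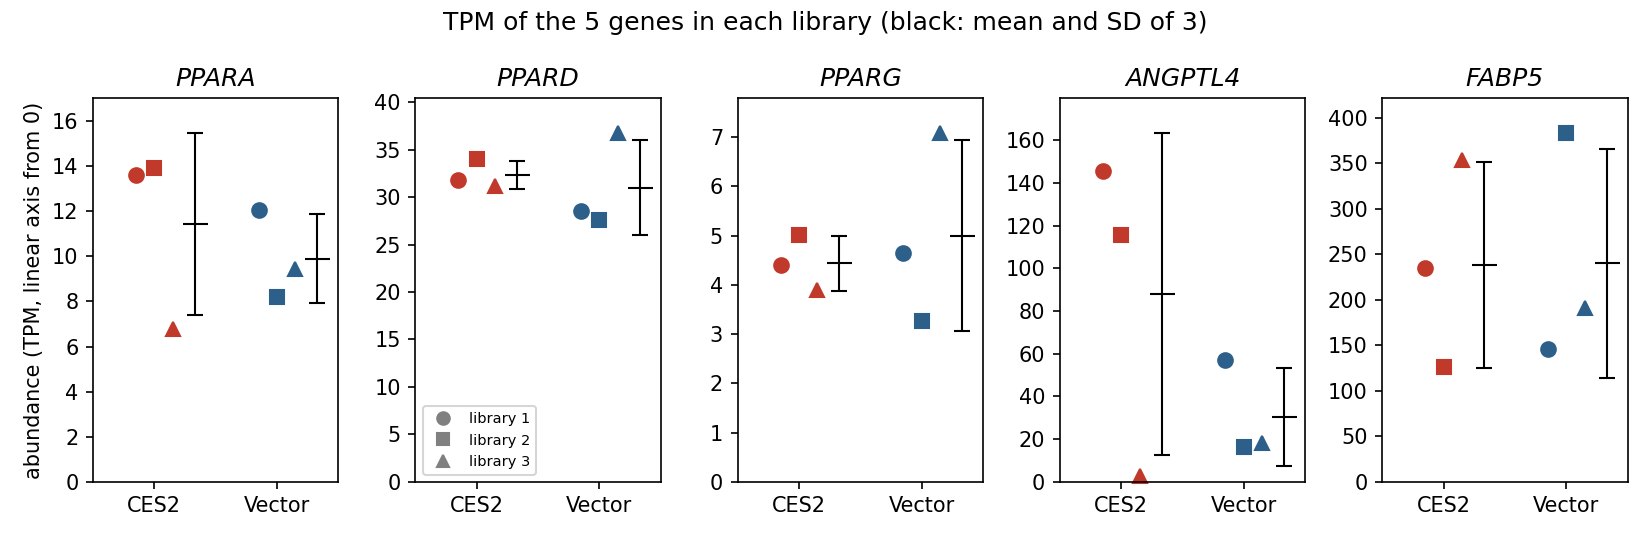
TPM of the 3 receptors and 2 target genes in each library (vertical axes linear from 0, scaled per gene; marker shape gives the library number, black bars the mean and SD of 3). CES2 and Vector points overlap for every gene, and ANGPTL4 in CES2 runs from 2.67 to 146 TPM.

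PPARD (ENSG00000112033, chromosome 6 from 35342558 to 35428191, plus strand, GRCh38) was the most abundant receptor. It was at 31.8, 34.0 and 31.2 TPM in CES2 and at 28.5, 27.6 and 36.8 TPM in Vector, a narrow band in which the highest library was 1.33 times the lowest. The means were 32.3 ± 1.47 TPM in CES2 and 31.0 ± 5.02 TPM in Vector (SD, n = 3 each). The log2 fold change came to 0.071 ± 0.20 (SE; 95% interval -0.38 to 0.52). The CES2 values lay inside the range of Vector. The within-group SD of PPARD was 0.16 log2 units, larger than that of only 12.3% of tested genes. The interval lies between a halving and a doubling on this scale. It measures only the spread between these libraries, which may be technical, so it does not bound the effect of CES2 in independent cultures.

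PPARA, the receptor of fatty acid oxidation (ENSG00000186951, chromosome 22 from 46150521 to 46243756, plus strand), was at 13.6, 13.9 and 6.77 TPM in CES2 and at 12.1, 8.21 and 9.44 TPM in Vector. CES2 3 was the lowest of the 6 libraries and CES2 1 and CES2 2 were the highest. The means were 11.4 ± 4.04 TPM in CES2 and 9.90 ± 1.97 TPM in Vector (SD, n = 3 each), and the log2 fold change came to 0.14 ± 0.31 (SE; 95% interval -0.57 to 0.86). In bulk RNA a smaller share of expressing cells and less RNA per cell cannot be told apart.

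PPARG, the receptor of adipocyte differentiation (ENSG00000132170, chromosome 3 from 12287368 to 12434356, plus strand), was the least abundant. It was at 4.40, 5.01 and 3.90 TPM in CES2 and at 4.65, 3.26 and 7.09 TPM in Vector, and both the lowest and the highest value came from Vector. The means were 4.44 ± 0.552 TPM in CES2 and 5.001 ± 1.94 TPM in Vector (SD, n = 3 each), and the log2 fold change came to -0.097 ± 0.30 (SE; 95% interval -0.78 to 0.58). Among tested genes the mean level of PPARG stood at percentile 13.5, that of PPARA at 24.8 and that of PPARD at 54.3.

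The order of the receptors was the same in all 6 libraries. PPARD was 2.34 to 4.61 times PPARA within a library, and their ranges over libraries did not overlap. PPARA was 1.33 to 3.09 times PPARG within a library, but the lowest PPARA value (6.77 TPM, CES2 3) was below the highest PPARG value (7.09 TPM, Vector 3). Each gene has several annotated transcripts (12 for PPARA, 5 for PPARD and 17 for PPARG in GENCODE release 29), and the table gives 1 value per gene, so isoforms such as the PPARG variants from different start sites were not resolved. The transcript that the table lists beside a gene is the one that starts farthest left, 368 bases long for PPARA, where the longest annotated one has 9995 bases. How transcripts entered a gene's TPM is not given in the sources used here, and the levels carry that uncertainty.

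**Figure D2:**
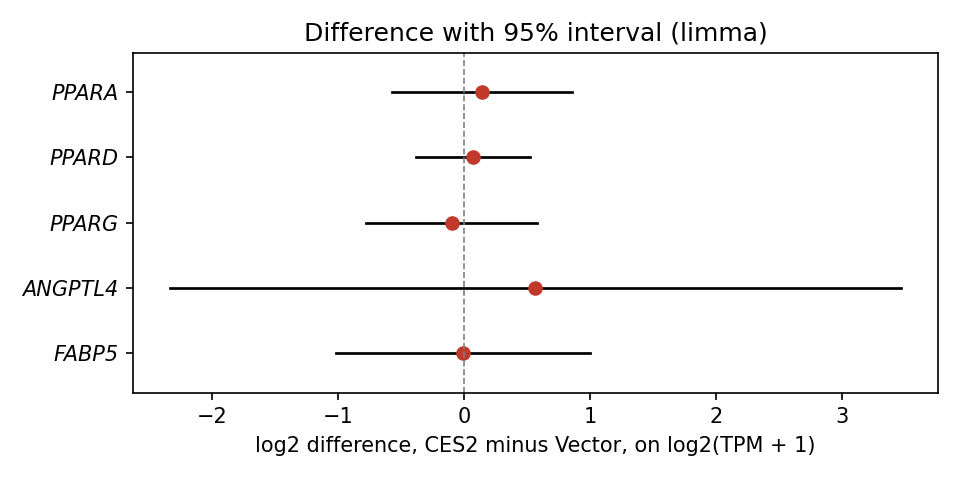
Log2 difference, CES2 minus Vector, on the log2(TPM + 1) scale with its 95% interval for each of the 5 genes (horizontal axis; points are limma estimates from 3 libraries per group, dashed line no difference). All 5 intervals include 0; that of PPARD is the narrowest (-0.38 to 0.52) and that of ANGPTL4 the widest (-2.34 to 3.47).

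ANGPTL4 encodes a secreted inhibitor of lipoprotein lipase and is induced by all PPARs as well as by hypoxia. It lies on chromosome 19 from 8363289 to 8374373 (plus strand, GRCh38; ENSG00000167772). Its level was 146, 116 and 2.67 TPM in CES2 and 56.9, 16.4 and 18.2 TPM in Vector. CES2 1 and CES2 2 were above every Vector library, whereas CES2 3 was below every one. The highest library was 54.6 times the lowest, and that whole range lay within CES2. In Vector the highest was 3.48 times the lowest.

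The means of ANGPTL4 were 88.0 ± 75.4 TPM in CES2 and 30.5 ± 22.9 TPM in Vector (SD, n = 3 each). An exact permutation test (two-sided) of the difference between these mean TPM values, not of log2 values, gave p = 0.4. The smallest p that 3 against 3 allows is 0.1. The log2 fold change came to 0.57 ± 1.27 (SE, 95% interval -2.34 to 3.47). The log2 fold change depended on each of the CES2 libraries. Without CES2 3 it came to 2.29 ± 0.47 (SE; limma, unadjusted p = 9.73e-04, adjusted p = 0.451). Over all the alternatives tried the adjusted p ranged from 0.451 to 1. Without CES2 1 the log2 fold change was -0.37 and without CES2 2 it was -0.21. It was 1.12 without Vector 1, 0.25 without Vector 2, 0.32 without Vector 3 and 2.16 with library weights. Only 11 of 12210 tested genes had a larger within-group SD than ANGPTL4, at 2.22 log2 units, while the level of the gene was near the middle (percentile 54.4).

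**Figure D3:**
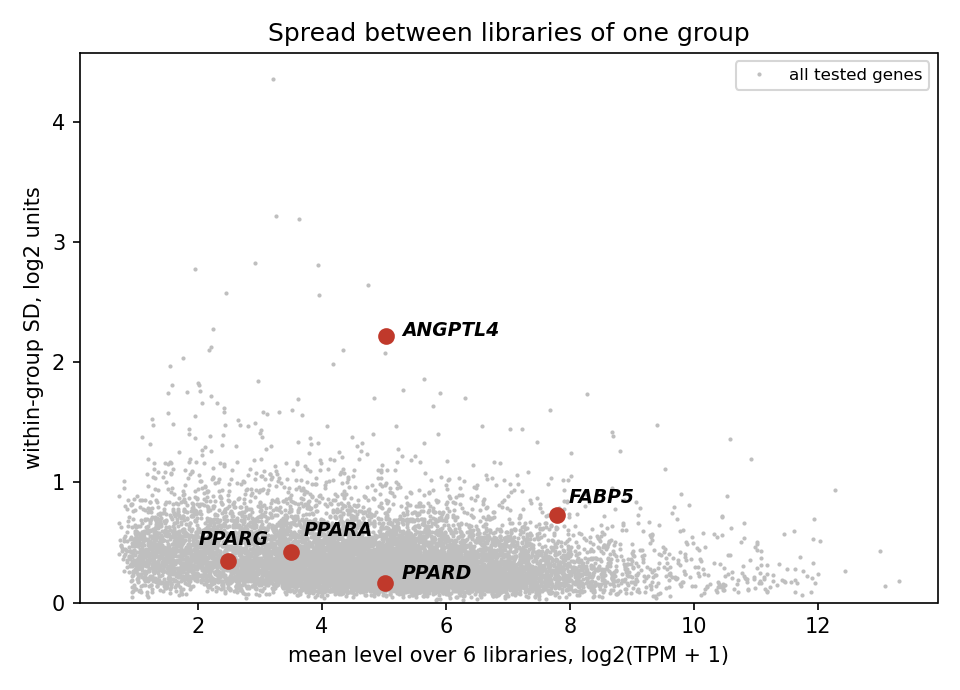
Within-group SD (vertical axis, log2 units, linear from 0) against mean level over 6 libraries (horizontal axis, log2(TPM + 1)) for the 12210 tested genes (grey) and the 5 genes of the set (red, named). ANGPTL4 sits far above genes of like level at 2.22, FABP5 at 0.73 is also high for its level, and PPARD at 0.16 is low.

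FABP5, the epidermal fatty acid binding protein, carries fatty acids and retinoic acid in the cytosol and can deliver ligand to PPARD. The gene (ENSG00000164687) lies on chromosome 8 from 81280363 to 81284777, plus strand. It had the highest mean TPM of the set, at 235, 127 and 353 TPM in CES2 and 146, 383 and 191 TPM in Vector. The groups were interleaved, with CES2 2 lowest and Vector 2 highest. The means were 238 ± 113 TPM in CES2 and 240.0 ± 126 TPM in Vector (SD, n = 3 each), and the log2 fold change came to -0.0078 ± 0.44 (SE; 95% interval -1.02 to 1.00). The near-zero difference is thus a mean of wide values, since the highest library was 3.03 times the lowest and the within-group SD was larger than that of 93.9% of tested genes. FABP5 has 14 pseudogenes named after it in GENCODE release 29, and near-identical copies can take or give reads, so its level is uncertain. FABP5 exceeded ANGPTL4 in all 6 libraries, by 1.09 times in the closest and 132 times in the widest, and exceeded PPARD by 3.72 to 13.9 times. ANGPTL4 was above PPARD in 3 libraries (CES2 1, CES2 2 and Vector 1) and below it in the rest.

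ANGPTL4 and PPARA followed nearly the same course over the libraries. Both were highest in CES2 1 and CES2 2, next in Vector 1, then Vector 3, then Vector 2, and lowest in CES2 3, apart from the exchanged order of CES2 1 and CES2 2. Over the 6 libraries the Pearson r of log2(TPM + 1) was 0.98 and the Spearman rho 0.94, and without the 2 libraries farthest from the median of PPARA (CES2 3 and CES2 2) r was 0.97. The amplitudes differed: ANGPTL4 ranged from -3.16 to 2.17 log2 units around its mean and PPARA from -0.55 to 0.40. PPARD and PPARG were also alike (r = 0.85, rho = 0.83), both highest in Vector 3 and lowest in Vector 2, but that likeness rested on those 2 libraries, since r was 0.26 without them. FABP5 ran against PPARA (r = -0.79, rho = -0.77), ANGPTL4 (r = -0.68, rho = -0.60) and PPARG (r = -0.64, rho = -0.83). These are 6 libraries that share a cell line and a scaling to a fixed total, and 10 pairs were compared.

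Many other genes shared each course. Of 10531 genes with a mean of at least 5 TPM, 62 had r of at least 0.95 with ANGPTL4, 96 with PPARA, 54 with PPARG, 21 with PPARD and 166 with FABP5, and 306 had r of at most -0.95 with FABP5. The 3 most like ANGPTL4 were CDON, a cell surface coreceptor of hedgehog signalling (r = 0.996, rho = 1), the deubiquitinase OTUD5 (r = 0.987, rho = 0.94) and ARRB1, beta-arrestin 1 (r = 0.987, rho = 0.94). CDON was at 8.44, 7.85 and 1.65 TPM in CES2 and at 6.17, 3.63 and 4.24 TPM in Vector. For PPARA they were CSRP2 (r = 0.996), the hexokinase HK1 (r = 0.990) and the mitochondrial threonyl-tRNA synthetase TARS2 (r = 0.987), each with rho = 1. For PPARD they were LRTOMT (r = 0.987, rho = 1), PLPP5 (r = 0.980, rho = 0.94) and HMCES (r = 0.976, rho = 0.94). For PPARG they were the antiviral adaptor MAVS (r = 0.996, rho = 0.94), the Wnt receptor FZD5 (r = 0.994, rho = 1) and the choline transporter-like SLC44A2 (r = 0.991, rho = 1). For FABP5 they were BCCIP (r = 0.997, rho = 1), the ribosome assembly GTPase GTPBP4 (r = 0.996, rho = 1) and the chaperone HSP90AB1 (r = 0.994, rho = 0.94). HSP90AB1 was at 3566, 2494 and 4367 TPM in CES2 and at 2727, 4310 and 3020 TPM in Vector.

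Hypoxia genes moved with ANGPTL4 across libraries. All 21 were tested, and each had a positive r with ANGPTL4 (0.048 to 0.98, median 0.89), beside a median of 0.0012 over the 10531 genes. With PPARA 20 of 21 were positive (median 0.81, beside 0.028 over those genes). With PPARG the median was 0.16, beside 0.26 over those genes, and with PPARD it was 0.022, beside 0.17. With FABP5 4 of 21 were positive, and the median was -0.47, beside -0.13. A positive r with ANGPTL4 was not particular to hypoxia genes. Among the 23 tested targets of fatty acid oxidation r with ANGPTL4 ran from -0.71 (UCP3) to 0.89 (HSD17B4). Among the 17 tested targets of uptake and storage it ran from -0.72 (AQP3) to 0.96 (GK). Most genes of both lists had a positive r. Per library, the median deviation of hypoxia genes from their own means over libraries was 0.68, 0.29 and -0.79 log2 units in CES2 and 0.19, -0.11 and -0.22 in Vector. Its part in the ANGPTL4 values was not tested. The prolyl hydroxylase EGLN3, chosen after its values were seen, was at 81.3, 44.3 and 5.41 TPM in CES2 and at 37.1, 19.4 and 26.1 TPM in Vector, in the same order as ANGPTL4 (r = 0.97, rho = 1). CA9, carbonic anhydrase 9, also chosen after its values were seen, was at 141, 77.5 and 2.98 TPM in CES2 and at 66.0, 59.1 and 9.21 TPM in Vector (r = 0.89, rho = 0.94). Between the groups no hypoxia gene passed the test, and 15 of 21 log2 fold changes were above 0 with a median of 0.064. The smallest p values belonged to ADM (adrenomedullin, log2 fold change 0.46), HILPDA (a lipid droplet protein, 0.47), VEGFA (0.33) and ALDOA (0.20).

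**Figure D4:**
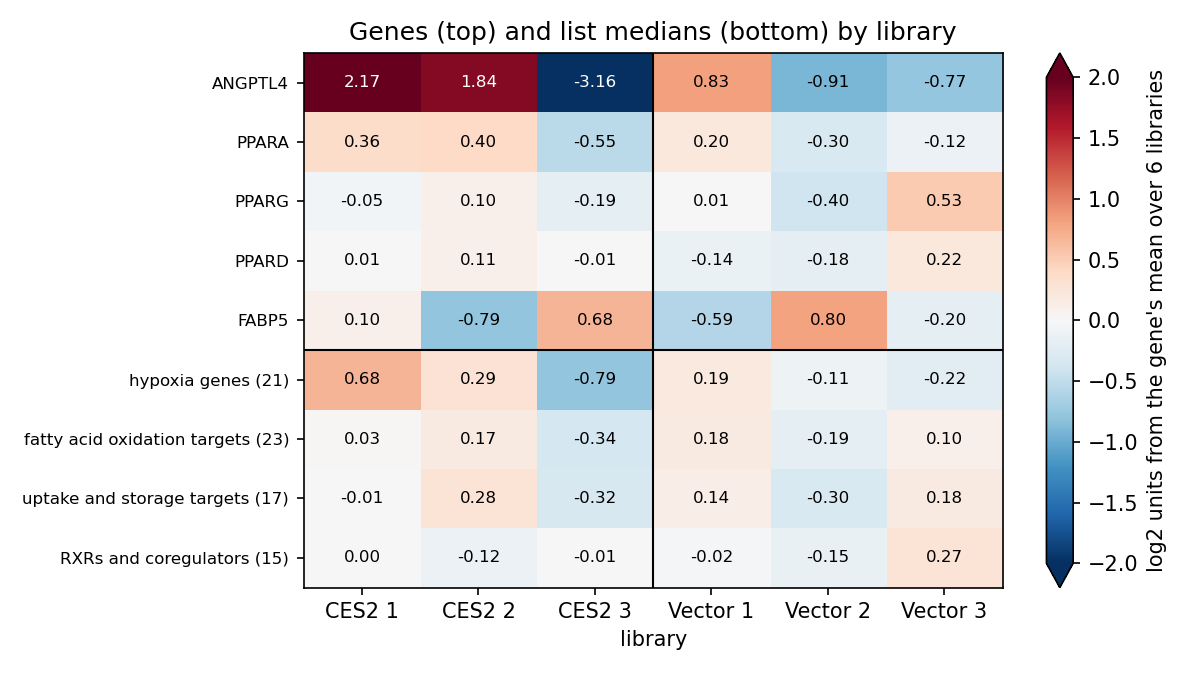
Deviation of each gene from its own mean over the 6 libraries, and the median deviation of the tested genes of 4 lists, by library (columns; cells and colour in log2 units, colours end at 2 and -2, CES2 left of Vector). ANGPTL4, PPARA, the hypoxia list and the uptake and storage targets are all highest in CES2 1 or CES2 2 and lowest in CES2 3. The fatty acid oxidation targets are also lowest in CES2 3 (-0.34) but highest in Vector 1 (0.18). FABP5 is low in CES2 2 and Vector 1.

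The sequence before the transcription start is shown for the pair that ran together, ANGPTL4 and PPARA, and for PPARG, the one receptor with the PPAR hexamer in this window. RefSeq promoter windows (GRCh38.p14) were found for 4 of the 5 genes, 1 each for ANGPTL4 and PPARD, 2 for PPARA and 6 for PPARG, and the 250 bases before each start were searched on both strands. Capitals mark the hexamer AGGTCA, to which the PPAR-RXR pair binds as a direct repeat, and the hypoxia core motif ACGTG, or the reverse complement of either; the 2 motifs do not overlap in the windows shown.
ANGPTL4 (chr19:8363905-8364154, + strand): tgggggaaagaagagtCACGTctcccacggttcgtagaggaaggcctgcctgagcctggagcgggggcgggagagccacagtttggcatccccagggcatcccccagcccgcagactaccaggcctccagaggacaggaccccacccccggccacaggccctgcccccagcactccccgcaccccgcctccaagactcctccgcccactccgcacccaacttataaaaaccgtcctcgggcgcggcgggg
PPARA (chr22:46150276-46150525, + strand): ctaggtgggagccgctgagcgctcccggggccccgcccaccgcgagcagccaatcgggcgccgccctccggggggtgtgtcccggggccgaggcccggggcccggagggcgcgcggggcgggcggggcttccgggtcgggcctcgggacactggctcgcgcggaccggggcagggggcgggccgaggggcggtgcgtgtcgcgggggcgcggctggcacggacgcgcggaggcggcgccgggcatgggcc
PPARG (chr3:12287118-12287367, + strand): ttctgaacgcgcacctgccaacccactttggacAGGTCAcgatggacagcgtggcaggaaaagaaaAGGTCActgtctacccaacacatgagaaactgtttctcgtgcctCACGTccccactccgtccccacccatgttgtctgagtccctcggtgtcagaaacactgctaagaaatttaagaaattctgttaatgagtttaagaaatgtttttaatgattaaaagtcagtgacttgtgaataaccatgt
The ANGPTL4 window held the hypoxia core once, starting 234 bases before the start, and no hexamer. This window lies inside the gene interval given above, so its start is not that of the listed transcript (8363289). Only exact matches within 250 bases of a start were searched, so elements elsewhere or with other letters would be missed. Both PPARA windows and the PPARD window held neither. The PPARG window shown held the hexamer at 217 and 184 bases and the hypoxia core at 140 bases before the start, and 3 of 6 PPARG windows held the hexamer, of which the other two overlap and share a match. Over all 35116 windows of this length 12.1% held the hexamer, 18.5% the hypoxia core and 0.0171% 2 hexamers in direct repeat with 1 base between them, an arrangement found in no window of these genes. A match is only a description of the letters.

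The wider PPAR pathway was followed in 10 lists with 154 other genes, of which 118 were tested, 13 were below the filter and 23 had no entry in the table. None passed the test, and 1 of 118 (0.847%) had an unadjusted p under 0.05, beside 1.09% of all tested genes. The groups stayed apart in 3 of 118 (2.54%), beside 3.7%. Of the 118 log2 fold changes 51 were above 0 and their median was -0.036.

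Among partners and coregulators of the receptors, 0 of 15 tested genes passed, 3 were above 0 and 12 below, with a median log2 fold change of -0.048. RXRA, the main RXR here, was at 144, 163 and 120 TPM in CES2 and at 153, 125 and 142 TPM in Vector, several times the level of any PPAR. The smallest p values belonged to NRIP1 (a corepressor, log2 fold change -0.30), the coactivators NCOA2 (-0.27) and NCOA1 (-0.25), and TBL1XR1, a corepressor exchange factor (-0.12). NRIP1 was at 10.4, 8.66 and 10.5 TPM in CES2 and at 12.2, 11.7 and 13.1 TPM in Vector, so the groups did not overlap, but it did not pass (limma, unadjusted p = 0.19). The coactivator PPARGC1A was below the filter, at 0.17 and 0.14 TPM and blank in CES2 and at 0.45, 0.10 and 0.044 TPM in Vector.

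Of 23 tested target genes of fatty acid oxidation 0 passed, with 6 above 0, 17 below and a median of -0.064, close to that of all tested genes. Among those with the smallest p values were DECR1 (log2 fold change -0.23), which removes double bonds from unsaturated fatty acids, the medium-chain dehydrogenase ACADM (-0.19) and ECI2 (-0.10). Target genes of uptake and storage were 8 above 0 and 9 below with a median of -0.0013, and 0 of 17 passed. There AQP3, a water and glycerol channel, was at 378, 465 and 706 TPM in CES2 and at 737, 677 and 606 TPM in Vector; the log2 fold change came to -0.43 ± 0.24 (SE). The other three with the smallest p were DGAT1, which makes triacylglycerol (0.20), glycerol kinase GK (0.22) and the acyl-CoA synthetase ACSL5 (-0.23). FABP4, LPL and ADIPOQ, classic PPARG targets of adipocytes, had no entry, and CD36 was below the filter.

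FABP6 had the largest log2 fold change of the 118 genes. It encodes the ileal bile acid binding protein of the FABP family, and was at 19.5, 30.1 and 1.95 TPM in CES2 and at 6.46, 0.885 and 1.57 TPM in Vector. CES2 1 and CES2 2 were above every Vector library and CES2 3 lay among them. The log2 fold change came to 1.90 ± 0.87 (SE; limma, unadjusted p = 0.058, adjusted p = 1.0), and r with ANGPTL4 over the 6 libraries was 0.84 (rho = 0.77). Among the other tested binding proteins, CRABP2, which takes retinoic acid to retinoic acid receptors, had a log2 fold change of -0.17 and FABP3 of -0.11. The median of the 4 tested was -0.11, with 1 above 0.

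Proteins that act with the target genes gave no call either. Of 5 tested perilipins and other droplet proteins, 3 were above 0 (median 0.010). HILPDA, also among the hypoxia genes above, was at 0.47, PLIN3 at 0.17, PLIN5 at 0.010, PLIN4 at -0.11 and PLIN1 at -0.053. Of 11 genes of the pyruvate dehydrogenase complex and its regulators, on which PDK4 acts, 5 were above 0 (median -0.018). PDP1, the phosphatase that opposes the PDKs, was at 65.4, 155 and 120 TPM in CES2 and at 81.5, 60.8 and 69.6 TPM in Vector, a log2 fold change of 0.60 (limma, unadjusted p = 0.087, adjusted p = 1.0), and the other three with the smallest p were PDHB (-0.26), DLD (-0.18) and DLAT (-0.19). Of 4 tested genes of the lipoprotein lipase axis, on which ANGPTL4 acts, 2 were above 0 (median -0.00099), with LIPH at -0.41, VLDLR at 0.10, LMF2 at 0.012 and LMF1 at -0.014. VLDLR, a lipoprotein receptor, was at 14.1, 10.5 and 0.475 TPM in CES2 and at 4.93, 4.20 and 5.66 TPM in Vector, again with CES2 3 lowest.

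Among 17 other nuclear receptors, 8 were above 0 and the median was -0.0085. NR1D2, a clock repressor, had the only unadjusted p under 0.05 (0.045, limma, adjusted p = 1.0), at 44.8, 31.8 and 23.7 TPM in CES2 and 52.3, 44.0 and 52.1 TPM in Vector (log2 fold change -0.59). The differences on the log2 scale were -0.26 for NR2C2 and 0.25 for NR2F6, whose groups did not overlap, and 0.33 for the vitamin D receptor VDR. Of 6 tested glucocorticoid response genes 2 were above 0 (median -0.20), with SGK1 at 0.74, NR3C1 and FKBP5 at -0.20 each and PER1 at -0.24.

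**Figure D5:**
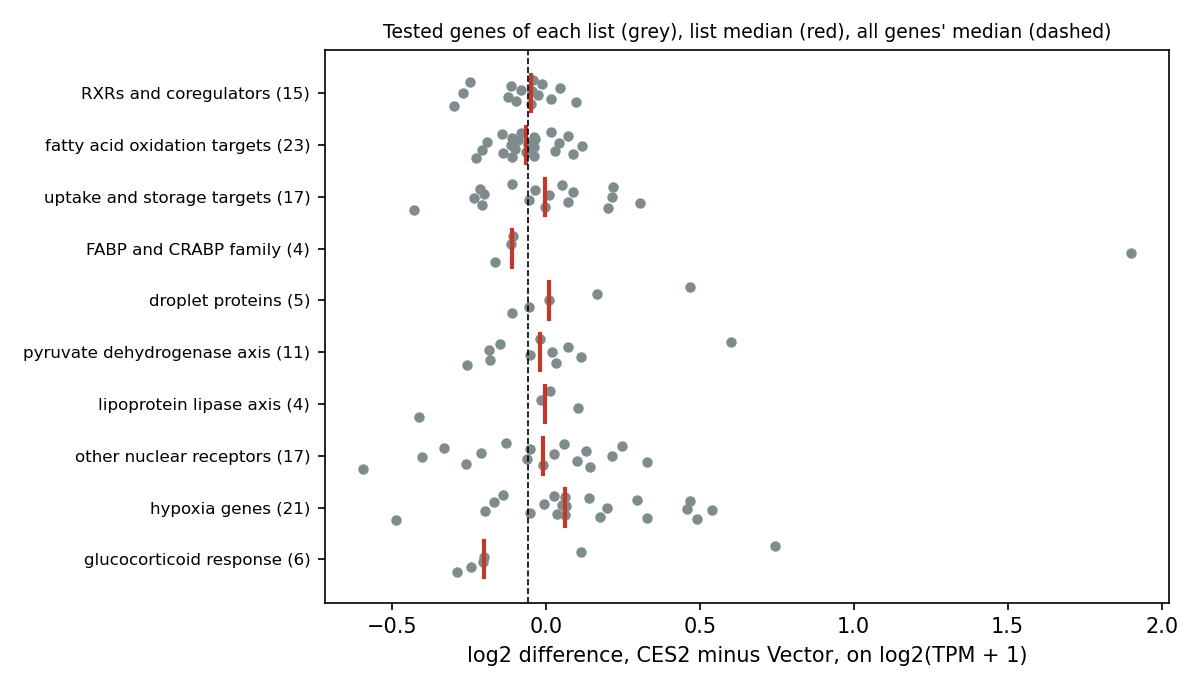
Log2 difference, CES2 minus Vector, of the tested genes in 10 lists around the PPARs (horizontal axis; 1 grey point per gene, number tested in brackets, red bar the list median, dashed line the median of all tested genes at -0.057). Most points lie between -0.5 and 0.5, and FABP6 at 1.90 is the farthest from 0.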

How the data were processed

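RNA of 3 CES2 and 3 Vector libraries was analysed. The labels' protocols describe removal of ribosomal RNA and strand-specific libraries. The deposited table holds values read as TPM from their sums (999804 to 999893 per library), since its header names no unit. Per the submitters' processing notes the tools were StringTie 1.3.3, HISAT2 2.1.0 and edgeR 3.0.8, with hg38 and GRCh38 as builds and no roles stated. Annotation, filters and use of strand: not given in the sources used here. Scaling to a fixed total lets abundant transcripts shift all others. Blanks (73 to 279 per library) were read as 0, and 20 symbols turned into dates were restored from gene identifiers.

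The 12210 genes that reached 1 TPM in 3 or more libraries were compared as log2(TPM + 1) by limma 3.58.1 (R 4.3.3, trend on mean level), group as the only term and Benjamini-Hochberg adjustment at 0.05. Fold changes on this scale tend to understate the change of low genes, and their errors are standard errors. For PPARG the log2 fold change was -0.097 with a pseudocount of 1 and -0.11 with 0.1. For ANGPTL4, low in CES2 3, it went the other way, at 0.57 with 1 and 0.48 with 0.1. The test was tried on simulated data with independent noise for each gene and library. Courses shared by many genes over libraries, as seen here, were not simulated, so the trial does not cover them. Python 3.11.15, pandas 2.3.3, scipy 1.17.1 and matplotlib 3.10.9 served for the rest. Members and gene lists were chosen with earlier results of these data known. Named genes are the set, the 4 smallest p values of each list and the 3 genes with the highest r to each member; some that the rule names are not reported here. Alternatives were each library left out, the replicate block, median and quantile scaling, filters, pseudocounts, no trend and library weights.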

Additional observations from a re-analysis of the deposited data

How the results depend on the processing

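None of the 5 genes was called in any of 17 alternatives each (16 for PPARG, which the filter of 5 TPM in 3 libraries removes), while signs of these small differences changed in several. With each library left out in turn the log2 fold change ran from -0.019 to 0.45 for PPARA, from -0.0034 to 0.20 for PPARD, from -0.32 to 0.14 for PPARG, from -0.37 to 2.29 for ANGPTL4 and from -0.35 to 0.39 for FABP5. It was -0.0028 for PPARA without CES2 1 and -0.019 without CES2 2, -0.0034 for PPARD without Vector 2, 0.14 for PPARG without Vector 3, -0.37 for ANGPTL4 without CES2 1 and -0.21 without CES2 2, and for FABP5 0.39 both without CES2 2 and without Vector 2. FABP5 was also above 0 after median rescaling (0.054) and with library weights (0.13), where PPARD was at -0.0043. Chosen after seeing the data, leaving out Vector 1 and CES2 2 together gave -0.016 for PPARD and 0.090 for FABP5, and leaving out Vector 2 and CES2 3 gave 0.047 for FABP5 and 1.97 for ANGPTL4 (limma, adjusted p = 0.81). The cause of these changes was not tested.

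The count of genes called was 1 in the comparison as reported and 1 to 2 with 1 library left out. It was 2 without CES2 3 (CES2 and RTEL1-TNFRSF6B, the second lower), 2 without both Vector 1 and CES2 2 (CES2 and S100A8) and 4 with library weights (CXCL3, CXCL1, CCL2 and CES2). With the replicate number as a block, 1 gene and 0 of the 5 were called and the log2 fold changes are those of the fit without it (0.57 for ANGPTL4, limma, adjusted p = 1.0). Equal numbers did not pair the libraries: deviations from group means had r = 0.15, -0.52 and 0.37 across genes for numbers 1, 2 and 3, and CES2 2 was most like Vector 1 (0.68). Depth is unknown, so counting error cannot be given.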

Other observations

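Of the listed PPAR target genes of oxidation, uptake and storage, 8 were below the filter of 1 TPM in 3 libraries and were not tested; the 4 shown were chosen after their values were seen. VNN1, vanin 1, a pantetheinase known as a PPARA target in liver, was at 2.44, 2.67 and 0.462 TPM in CES2 and at 0.689, 0.596 and 0.0784 TPM in Vector. CD36, a fatty acid translocase, was at 0.186 and 0.298 TPM and blank in CES2 and at 0.524, 0.352 and 0.192 TPM in Vector. ACAA2, a mitochondrial thiolase, was at 0.792, 1.05 and 0.108 TPM in CES2 and at 1.05, 0.189 and 0.384 TPM in Vector. LIPE, hormone-sensitive lipase, was at 0.220, 0.678 and 0.960 TPM in CES2 and at 0.333, 0.651 and 1.77 TPM in Vector. CES2 3 held the lowest CES2 value in 5 of the 8 genes and not in 3, LIPE among the 3, and the groups overlapped in all 8.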
